A study of Saccharomyces cerevisiae with 20 samples.

Results

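The nuclear genes for the proteins of the yeast mitochondrial ribosome were examined in Saccharomyces cerevisiae with a wild-type or a temperature-sensitive copy of CDC33, the gene for the cap-binding translation factor eIF4E. The members were the genes of the deposited differential-expression tables named MRPL, MRPS, MRP or RSM with a number, or IMG1 or IMG2, and 68 of the 5778 genes met this rule. Of these, 39 were annotated in the reference genome as proteins of the 54S large subunit and 27 as proteins of the 37S small subunit. The other 2 were MRP8, which the reference names only Mrp8p, and RSM22, annotated as a tRNA methyltransferase. The names fit the label for 66 of the 68 genes.

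Both strains were of the BY4741 background and carried a HIS3 marker at the CDC33 locus, the control as CDC33-HIS3 and the mutant as cdc33-ts4-2-HIS3. Cultures were grown in rich medium at 25°C, divided, and kept for 1 h at 25°C, the permissive temperature, or at 37°C, the restrictive temperature for the mutant. RNA-seq covered 12 samples, 3 in each of the 4 groups, and ribosome profiling covered 8 samples, 2 in each group. The comparison of 37°C with 25°C in CDC33 is also a heat shock of cells with working eIF4E, and the mutant held less eIF4E than the control already at 25°C.

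Mitochondria keep their own ribosome, which makes a handful of hydrophobic subunits of the respiratory chain and the ATP synthase. Nearly all of its proteins are encoded in the nucleus, translated in the cytosol as any other mRNA and imported. The mRNAs of many of these proteins are bound in their 3′ UTRs by Puf3, a Pumilio-family RNA-binding protein known in yeast for its control of the location, translation and decay of mRNAs for mitochondrial proteins. Each assembled particle holds its proteins in fixed proportions, so the genes form a module whose products are needed in equal numbers.

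Nearly all of the 68 genes carried the letters of the Puf3 element after the coding sequence. The element was searched as TGTANATA on the coding strand, in the 200 bases of genome after each stop codon, without reference to mapped transcript ends. It was found in 66 of 68 members (97.1%), against 837 of 5762 genes searched (14.5%). The same letters on the other strand of the same windows were found in 13 members (19.1%) and in 765 of all genes (13.3%), so the excess lay on the coding strand. The element was present in all 39 genes of the 54S proteins and all 27 genes of the 37S proteins. The members that lacked it were MRP8 and RSM22, the same genes that the reference does not name as ribosomal proteins. Puf3's known targets include many of these genes, so the element is not independent evidence about them.

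Sites are shown for 6 members at an end of the order of RNA levels or ratios given below (MRPS12, IMG1, MRP1, RSM7, MRPL24 and MRPS17) and for RSM19, the gene with the most copies, with 8 bases on each side and the element in capitals. Positions are those of genome build R64.

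MRP1, copy that starts 51 bases after the stop codon, chrIV:1170186-1170209, plus strand: gtagtctcTGTAAATAtataaagt

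MRP1, copy that starts 83 bases after the stop codon, chrIV:1170218-1170241, plus strand: tcgtaatgTGTATATAacgtggtc

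MRPL24, copy that starts 55 bases after the stop codon, chrXIII:650859-650882, plus strand: ttttccccTGTATATAaaaaagca

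MRPL24, copy that starts 79 bases after the stop codon, chrXIII:650883-650906, plus strand: tatctgttTGTACATAtgtaggta

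RSM19, copy that starts 10 bases after the stop codon, chrXIV:695027-695050, minus strand: ggatctagTGTATATAgatttcta

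RSM19, copy that starts 38 bases after the stop codon, chrXIV:694999-695022, minus strand: atatatcaTGTAAATAagatcaag

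RSM19, copy that starts 66 bases after the stop codon, chrXIV:694971-694994, minus strand: actcgggcTGTATATAtatatata

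MRPS12, chrXIV:694272-694295, minus strand: caacctttTGTAAATAgcaatgac

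IMG1, chrIII:209866-209889, minus strand: ccatctccTGTATATAagaaaaat

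MRPS17, chrXIII:636220-636243, minus strand: ctacactcTGTAAATAtatacaac

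RSM7, chrX:638195-638218, minus strand: aacttgccTGTACATAaacacatt

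The 66 genes held 80 copies in all, and 13 of them held 2 or more: MRP1, MRPL1, MRPL3, MRPL19, MRPL24, MRPL28, MRPL33, MRPL36, MRPL49, MRPS5, MRPS16, RSM24 and, with 3 copies, RSM19. Among all genes, 72 of 5762 (1.25%) held 2 or more. The copies lay close to the coding sequence: 73 of the 80 began within 100 bases of the stop codon, at a median of 54 bases. The fifth base, which the search left free, was A in 36 copies, T in 26, C in 17 and G in 1, the last in MRPL3. A cytosine stood 2 bases before the element in 53 of 80 copies (66.2%), as in the IMG1 copy and the RSM7 copy. At sites of genes that are no members the cytosine stood there in 202 of 836 (24.2%), a description made after the sites had been seen.

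**Figure D1:**
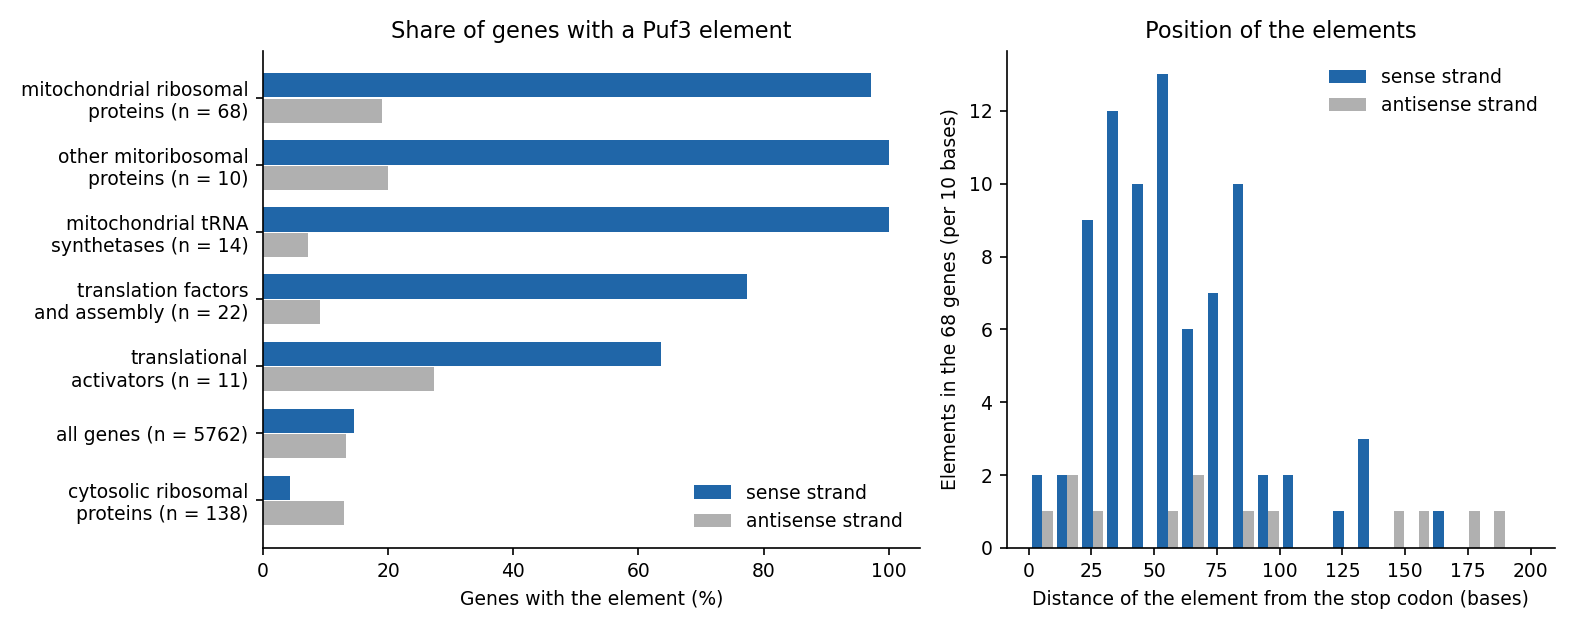
Left, share of genes (%) with the Puf3 element in the 200 bases after the stop codon, on the coding (sense) strand in blue and on the other strand in grey, for each gene list with its number of genes. Right, number of elements in the 68 genes per 10 bases of distance from the stop codon, where 73 of the 80 sense copies begin within 100 bases.

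The rest of the mitochondrial translation machinery was compared by lists of genes. The element was found in 10 of 10 mitoribosome proteins and partners with other names, in 14 of 14 mitochondrial aminoacyl-tRNA synthetases, which charge the tRNAs of the organelle, and in 17 of 22 translation and ribosome assembly factors. Of the message-specific translational activators, proteins that recognise single mitochondrial mRNAs, 7 of 11 had it. By contrast, 6 of 138 genes for proteins of the cytosolic ribosome had it (4.35%), below the 14.5% of all genes. No test was made of these shares.

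The region before the start codon showed less that set the members apart. An A stood 3 bases before the start codon, the most favoured base of the yeast start context, in 40 of 68 members (58.8%) and in 60.9% of all genes, whereas 84.1% of the cytosolic ribosomal protein genes had it. An upstream ATG within 100 bases of genome was present in 30 of 68 members (44.1%) and in 51% of all genes. This window too was taken without reference to mapped transcript ends, so an ATG in it may lie outside the mRNA. The authors' feature table held 6 members (MRP10, MRPL10, MRPL19, MRPS8, RSM19 and RSM25) and listed none of them with an upstream open reading frame, against 93 of the 869 genes in that table. Only MRPL44 had an intron in its coding sequence, and the authors' table of intron densities held no member.

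The levels of the members were read from the authors' mean normalized counts, 1 mean per gene and assay, which carry no spread over samples. The samples behind a mean are not named, and they were taken to be all samples of the assay. Read so, these means mix both strains and temperatures, and they describe how the genes rank and not a response. Whether they already carried a scaling by gene length was not settled by the files, so values divided by coding length are given with the undivided ones beside them. Divided by coding length, the members had a median RNA-seq mean of 298 per kb against 185 per kb for all 5700 genes with values, and 51 of 68 were above the all-gene median. For ribosome profiling, which counts ribosome-protected fragments, the median was 594 per kb against 259 per kb, and 67 of 68 members were above the all-gene median. The exception was RSM22, at 141 per kb. The order of RNA levels depended on the division by length, since the undivided RNA count was above the all-gene median in 26 of 68 members. The undivided ribosome-profiling count was above it in 51 of 68.

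The members' mRNAs varied widely and their ribosome occupancy much less. MRPS12, the counterpart of the bacterial decoding-centre protein S12, had the highest RNA-seq mean, 2512 per kb, and was followed by IMG1, a 54S protein needed to keep mitochondrial DNA intact, at 964 per kb. MRPS18 had 958 per kb, MRP1 had 922 per kb and RSM7 had 917 per kb, all 3 of them proteins of the small subunit. The lowest were RSM22 with 47.1 per kb, MRPL24 of the large subunit with 51.2 per kb and RSM28 of the small subunit with 91.2 per kb. The highest RNA-seq mean per kb was thus 53.3 times the lowest, and the highest undivided mean was 29.2 times the lowest.

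In ribosome profiling the same genes came closer together. MRPS12 had 1659 per kb, MRPS18 1036 per kb, IMG1 808 per kb, MRP1 571 per kb and RSM7 577 per kb. At the low end, MRPL24 had 414 per kb, RSM28 397 per kb and RSM22 141 per kb. Over all 68 members the highest ribosome-profiling mean per kb was 16.2 times the lowest, and the highest undivided mean was 6.35 times the lowest. The standard deviation among members was 1.07 for the log2 RNA-seq mean per kb and 0.67 for the log2 ribosome-profiling mean per kb. Over all genes these standard deviations were 2.66 and 2.74. A smaller spread in ribosome profiling than in RNA-seq was also seen in other lists, with 1.32 and 1.04 for the cytosolic ribosomal protein genes, 0.95 and 0.50 for the mitochondrial aminoacyl-tRNA synthetases and 1.26 and 0.75 for the mitoribosome proteins with other names. MRP8 had the highest ribosome-profiling mean of the members, 2277 per kb, though its RNA-seq mean of 452 per kb was not among the 5 highest.

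The narrowing was strongest in the counts themselves. Among the 39 genes for 54S proteins, the undivided RNA-seq mean differed 12.4-fold between the lowest and the highest gene, and the undivided ribosome-profiling mean differed 2.16-fold, from 249 to 537. The standard deviation of the log2 count over these 39 genes was 0.97 for RNA-seq and 0.28 for ribosome profiling. For the 27 genes of 37S proteins it was 1.23 and 0.39, and for the 14 mitochondrial aminoacyl-tRNA synthetases 0.88 and 0.31. The undivided means of the 37S genes differed 17.3-fold in RNA-seq and 3.24-fold in ribosome profiling. Over the members the ribosome-profiling mean per kb fell with coding length (Spearman's rho = −0.83, n = 68 genes), against −0.28 over all genes. The undivided mean of the members rose with it instead (rho = 0.42), so the sign depended on the division. These correlations are across genes, which are not independent replicates, and for the mean per kb length enters both axes.

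**Figure D2:**
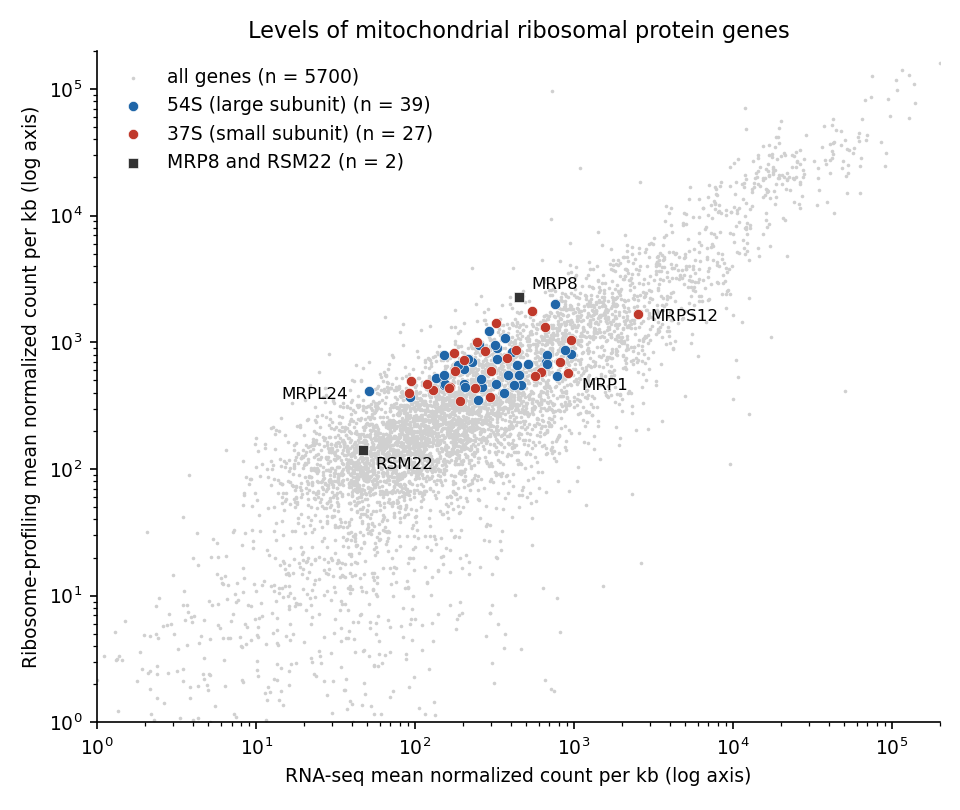
Authors' mean normalized count per kb of coding sequence for RNA-seq (x axis, log scale) and ribosome profiling (y axis, log scale), 1 point a gene, with genes below 1 per kb outside the axes. The members spread from 47.1 to 2512 per kb on the x axis and, RSM22 apart, lie between 345 and 2277 per kb on the y axis.

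The ratio of the ribosome-profiling mean to the RNA-seq mean was accordingly high for members with little RNA and low for those with much. Its median was 2.30 over the members and 1.31 over all genes, and 50 of 68 members (73.5%) were above the all-gene median. Large- and small-subunit genes were alike in it, with medians of 2.28 and 2.01. The highest ratios belonged to MRPL24 (8.10), MRPS17 of the small subunit (5.28) and MRPL27 of the large subunit (5.27). The lowest belonged to MRP1 (0.62), RSM7 (0.63) and MRPS12 (0.66), which were also among the 5 members with the most RNA per kb. Across members the log2 ratio fell with the log2 RNA-seq mean per kb (rho = −0.76, n = 68 genes), against −0.36 over all genes. Other lists had like values, −0.84 for the 14 mitochondrial aminoacyl-tRNA synthetases, −0.85 for the 10 other mitoribosome proteins and −0.69 for the 138 cytosolic ribosomal protein genes. The RNA-seq mean is the denominator of the ratio, so a part of this relation is built in.

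**Figure D3:**
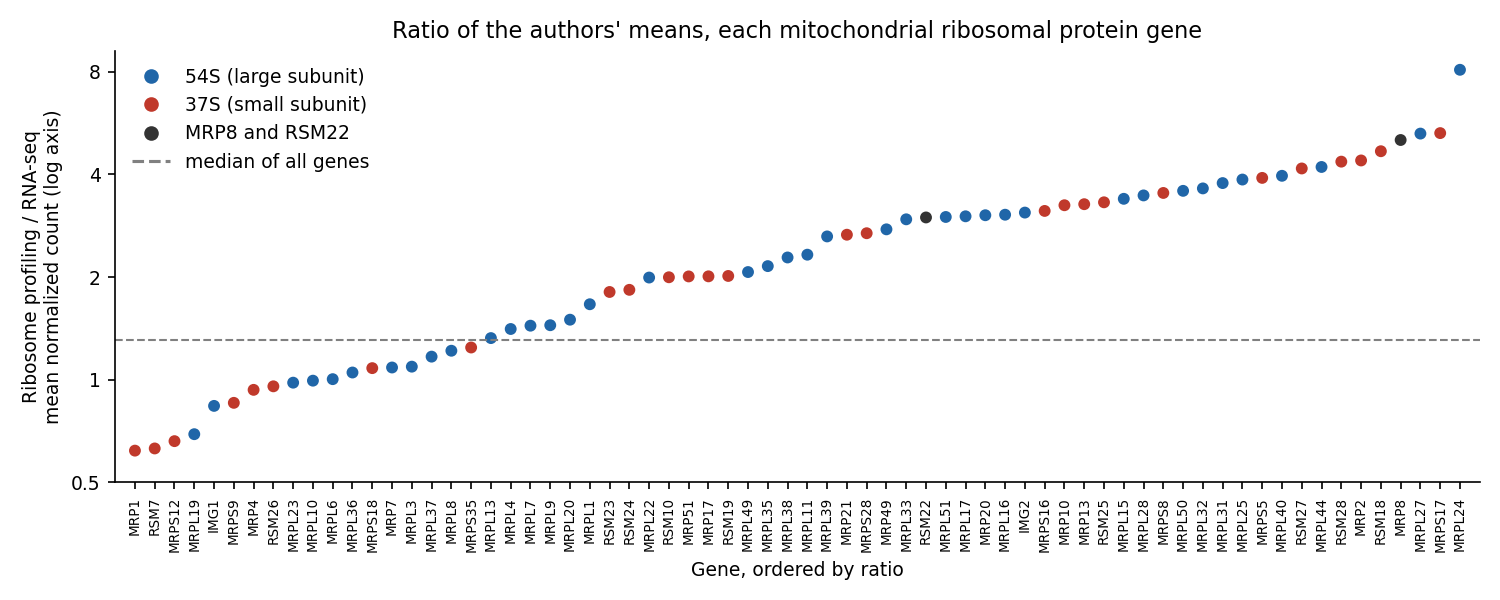
Ratio of the authors' ribosome-profiling mean to their RNA-seq mean (log axis) for each of the 68 genes in order, from 0.62 in MRP1 to 8.10 in MRPL24. The dashed line is the median of all genes, 1.31, with 50 members above it.

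Coding length bears on these ratios. The members' coding sequences were short, with a median of 680 bases against 1221 for all genes. Among the 38 members with at least 600 bases the median ratio was 1.91, against 1.31 for all genes of that length. The share of short coding sequences in the ratio was not tested further. The medians of the other genes of mitochondrial translation were 1.68 for translation and assembly factors, 1.67 for other mitoribosomal proteins, 1.49 for the aminoacyl-tRNA synthetases and 1.03 for the activators. The cytosolic ribosomal protein genes had a median of 1.23. Members with 2 or more Puf3 elements had a median of 2.01, against 2.22 for all 66 members with an element.

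The response to temperature was read from per-sample densities of reads in the UTRs, each divided by the density in the coding sequence of the same gene. These values show where reads lay along a gene, not how much the gene was expressed. Cycloheximide was added before harvest. The paper calls it a known source of artifacts and judged values per gene to be little biased, which does not cover positions along a gene. It also reports fragments without the usual lengths or in-frame enrichment, possibly from incomplete RNase digestion. Their coverage was mainly in coding sequences and 5′ UTRs. Of the 68 members, 40 were listed in the density tables. Only 8 had a 5′ UTR value in every sample (MRP1, MRP4, MRPL3, MRPL6, MRPL13, MRPL23, MRPS18 and RSM7), and 9 had a 3′ UTR value in every sample, the same 8 and MRPL22. The results that follow rest on these genes and leave the other members undescribed. The 8 genes with complete 5′ UTR values were among the members with more RNA. Their undivided RNA-seq means ran from 405 (MRPL13) to 890 (MRP1), against a median of 166 over the 68 members. Their ratios of ribosome profiling to RNA-seq ran from 0.62 (MRP1) to 1.32 (MRPL13), against a member median of 2.30. MRPL22 had an RNA-seq mean of 241 and a ratio of 1.99.

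The 5′ UTR density in ribosome profiling was higher at 37°C for MRP1 in both strains and for RSM7 in the mutant. This density is a ratio to the coding sequence, so reads in either region can move it. Its median over all genes was higher at 37°C too. The calls for MRP1 and RSM7 were lost with centring and with a replicate block, as given below. MRP1 encodes a protein of the small subunit (chrIV:1169178-1170143, plus strand). Its 5′ UTR density in ribosome profiling was 0.0738 and 0.102 in CDC33 at 25°C and 0.407 and 0.272 at 37°C. In cdc33-ts4-2 it was 0.111 in both samples at 25°C and 0.413 and 0.382 at 37°C. The 37°C samples lay above the 25°C samples in both strains, with no overlap.

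On the log2(density + 0.01) scale, which understates the change of low values, MRP1 rose by 1.82 ± 0.28 (SE, n = 2 and 2) in CDC33 (limma, adjusted p = 0.024). In the mutant it rose by 1.75 ± 0.28 (SE, n = 2 and 2; limma, adjusted p = 0.022). The rise in the mutant differed from that in CDC33 by −0.07 ± 0.39 (SE; limma, adjusted p = 0.98 for the strain by temperature term). In RNA-seq, the 5′ UTR density of MRP1 in CDC33 was 0.539, 0.717 and 0.673 at 25°C and 0.582, 0.776 and 0.601 at 37°C. In the mutant it was 0.764, 0.871 and 0.479 at 25°C and 0.890, 0.672 and 1.21 at 37°C, and the temperatures overlapped in both strains.

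RSM7 encodes the small-subunit counterpart of bacterial S7, a protein that in bacteria starts the assembly of the subunit head (chrX:638232-638975, minus strand). Its 5′ UTR density in ribosome profiling was 0.00767 and 0.0171 in cdc33-ts4-2 at 25°C and 0.0854 and 0.0977 at 37°C. In CDC33 it was 0.00739 and 0.0309 at 25°C and 0.0338 and 0.0379 at 37°C. The mutant's 37°C samples were the highest of the 8. The difference was 2.21 ± 0.51 (SE, n = 2 and 2) in the mutant (limma, adjusted p = 0.042) and 0.78 ± 0.51 in CDC33 (limma, adjusted p = 0.32). The change in the mutant was not shown to differ from that in CDC33 (limma, strain by temperature, adjusted p = 0.53).

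RSM7's density in RNA-seq was between 0.101 and 0.217 in all 12 samples, with every group overlapping the others. Its value in ribosome profiling depended on the pseudocount, at 2.88 with 0.001 (limma, adjusted p = 0.071) and 0.77 with 0.1 (limma, adjusted p = 0.014).

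The share of members called was near that of all genes. In CDC33, 1 of 8 members was called higher and none lower, beside 170 of 1218 genes called in either direction (14%) and 13.5% called higher. In the mutant 2 of 8 were called higher, beside 17.2% called in either direction and 16.8% called higher. For the strain by temperature term no member was called, beside 3 of 1218 genes (0.246%). There 1 member, MRPL13, had an unadjusted limma p under 0.05, among 131 of the 1218 genes. The median difference of the 8 members was 0.67 in CDC33 and 0.75 in the mutant, against 0.73 and 0.80 for all genes. With every sample centred on its own median over genes, MRP1's differences became 0.96 (limma, adjusted p = 0.13) in CDC33 and 0.48 (limma, adjusted p = 0.35) in the mutant, and RSM7's became 0.94 (limma, adjusted p = 0.23). Neither gene passed the test then, in either strain. The split of all genes called turned with the centring, from 164 of 170 higher to 8 of 16 in CDC33 and from 205 of 209 higher to 25 of 241 in the mutant.

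The calls also rested on few libraries. Without CDC33 25°C replicate 1, 37°C replicate 1 or 37°C replicate 2, the limma adjusted p of MRP1 in CDC33 was 0.055, 0.073 and 0.10, and it was 0.016 without 25°C replicate 2. In the mutant, leaving out any of the 4 ribosome-profiling samples in turn took both calls past the threshold, with limma adjusted p between 0.063 and 0.12 for MRP1 and between 0.098 and 0.17 for RSM7. With the replicate number as a block the limma adjusted p was 0.057 for MRP1 in CDC33, 0.059 for MRP1 in the mutant and 0.067 for RSM7 in the mutant, so none of the 3 calls held.

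The other members varied in where their 5′ UTR reads lay. MRP4, the counterpart of bacterial S2, had densities of 0.0219 and 0.0699 in CDC33 at 25°C and 0.0978 and 0.140 at 37°C. In the mutant it had 0.247 and 0.268 at 25°C and 0.408 and 0.454 at 37°C. Its 4 groups did not overlap, and the mutant was above CDC33 at each temperature, a difference for which no test was made. The median over all genes was also higher in the mutant than in CDC33 at each temperature. The share of all genes with such a strain difference was not counted. The temperature difference of MRP4 was 1.33 ± 0.47 (SE, n = 2 and 2) in CDC33 (limma, adjusted p = 0.10). In the mutant it was 0.72 ± 0.47 (SE; limma, adjusted p = 0.31).

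MRPL13, a large-subunit protein with 3 ATGs in the 100 bases of genome before its start codon, went opposite ways in the strains without passing the test. Its densities were 0.117 and 0.278 in CDC33 at 25°C and 0.0596 and 0.0587 at 37°C, and 0.123 and 0.184 in the mutant at 25°C and 0.455 and 0.274 at 37°C. The difference was −1.47 ± 0.49 in CDC33 (limma, adjusted p = 0.092) and 1.17 ± 0.49 in the mutant (SE; limma, adjusted p = 0.13). The strain by temperature term was 2.64 ± 0.69 (SE; limma, adjusted p = 0.39).

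Of the remaining members, MRPL6 had between 0.0251 and 0.0909 in all 8 ribosome-profiling samples, although its RNA-seq density in the same region was between 0.747 and 1.71. MRPS18 had between 0 and 0.0544. MRPL23 was listed at 0 in 6 of 8 ribosome-profiling samples, and MRPL3 was listed at 0 in all 20 samples of both assays. In all, every 37°C sample lay above every 25°C sample in 5 of 8 members in CDC33 (55.7% of all genes) and 4 of 8 in the mutant (62.4% of all genes). Every 37°C sample lay below in MRPL13 alone, in CDC33 (7.96% of all genes).

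**Figure D4:**
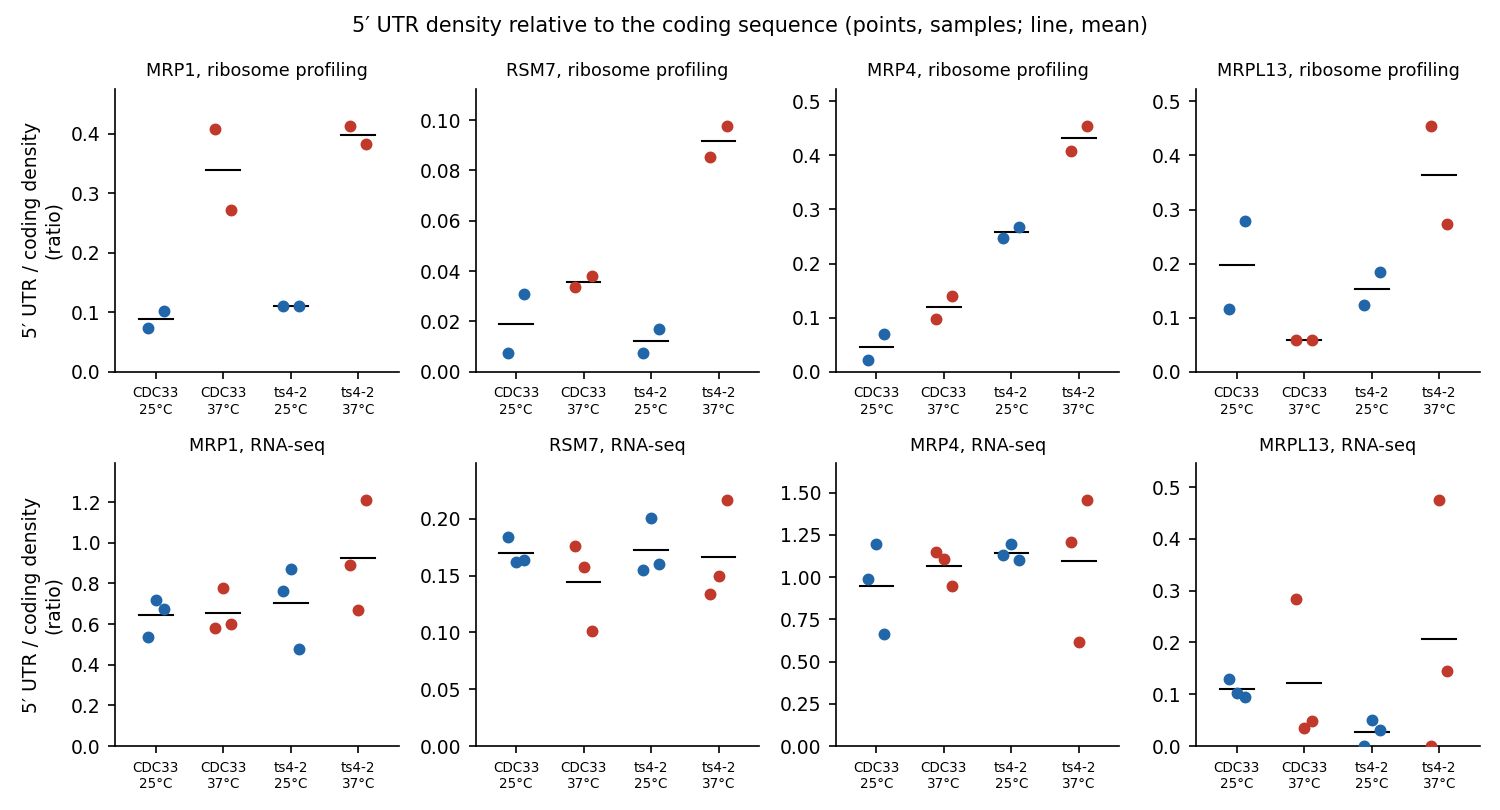
5′ UTR density relative to the coding sequence (ratio) in ribosome profiling (top) and RNA-seq (bottom) for 4 genes, 1 point a sample (blue 25°C, red 37°C) with a line at the mean; ts4-2 stands for cdc33-ts4-2. MRP1 separates 25°C from 37°C in ribosome profiling in both strains, whereas its RNA-seq groups overlap.

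In RNA-seq, no member passed the test for 5′ UTR density in CDC33 (7 of 1218 genes, 0.575%), in the mutant (46 genes, 3.78%) or for the strain by temperature term (12 genes, 0.985%). No member had an unadjusted limma p under 0.05 in any of these, beside 133, 170 and 156 of the 1218 genes. The members' median differences were 0.0052 in CDC33, 0.33 in the mutant and 0.31 for the strain by temperature term, against −0.099, 0.13 and 0.25 for all genes. The largest temperature difference was that of MRPL13, with 1.64 ± 1.31 (SE) in the mutant, where its RNA-seq density ran from 0 to 0.475 at 37°C. MRPL23 and MRPL6 had all 3 of their 37°C samples above all 3 of their 25°C samples in the mutant, as did 17.5% of all genes.

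The Puf3 elements were searched after the stop codon, and their place within mapped 3′ UTRs was not checked. Ribosome density in the 3′ UTR was low beside the coding sequence, in the members as over all genes. In CDC33 at 25°C the median of the members' mean densities was 0.00582 in ribosome profiling, against 0.00176 over all genes, and 0.851 in RNA-seq, against 0.873, so nearly all protected fragments came from before the stop codon. In the mutant the median of the members' means went from 0 at 25°C to 0.0115 at 37°C, and over all genes from 0.00197 to 0.0176. None of the 9 members passed the test in CDC33 (11 of 1208 genes, 0.911%), in the mutant (449 genes, 37.2%) or for the strain by temperature term (187 genes, 15.5%). The count at an unadjusted limma p under 0.05 was 0, 1 and 0 members, beside 83, 560 and 401 of the 1208 genes. Of the 449 genes called in the mutant 442 were higher, and with each sample centred on its median 171 of 425 were. No gene was called for the strain by temperature term with the centring. The members' median differences were 0.083 in CDC33, 0.86 in the mutant and 0.98 for the strain by temperature term, against 0.094, 0.91 and 0.74 for all genes.

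MRPL22, a large-subunit protein at the peptide exit tunnel, came closest. Its 3′ UTR density in ribosome profiling was 0.00882 and 0.00372 in the mutant at 25°C and 0.0175 and 0.0332 at 37°C. In CDC33 it was 0.00341 and 0.00823 at 25°C and 0.0192 and 0.00926 at 37°C. The 37°C samples were above the 25°C samples in each strain, as in 54.6% of all genes in the mutant and 27.1% in CDC33. The difference in the mutant was 1.10 ± 0.39 (SE, n = 2 and 2; limma, adjusted p = 0.081). It passed when only genes above 0 in at least 6 of the 8 samples were kept (limma, adjusted p = 0.043), a fit over 580 genes. With centring it was not called. In the main fit 37.2% of all genes were called in the mutant.

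In the mutant the largest differences in value were those of MRPL13 (1.77 ± 1.30, SE) and MRP1 (1.21 ± 0.88, SE), each set by 1 sample at 37°C. MRPL13 was listed at 0 and 0.107 there and MRP1 at 0.0433 and 0, with both 25°C samples of each gene at 0. MRP1's difference was 2.41 without 37°C replicate 2 (limma, adjusted p = 0.049) and 0 without 37°C replicate 1.

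In RNA-seq, the mean 3′ UTR densities of the members in a group ran from 0.291, for MRPL6, to 2.16, for MRPL13, both in the mutant at 37°C. None of the 9 members was called in CDC33 (0 of 1208 genes, 0%), in the mutant (30 genes, 2.48%) or for the strain by temperature term (0 genes, 0%). With an unadjusted limma p under 0.05, 51 genes and 1 member differed in CDC33, 177 genes and 2 members in the mutant, and 69 genes and 0 members for the strain by temperature term. The members were MRPL22 in both strains and MRPL13 in the mutant. The members' median differences were −0.015 in CDC33, 0.33 in the mutant and 0.25 for the strain by temperature term, against 0.072, 0.025 and −0.042 for all genes.

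MRPL13 had RNA-seq 3′ UTR densities of 1.27, 1.29 and 1.39 in the mutant at 25°C and of 2.13, 1.94 and 2.42 at 37°C, a difference of 0.71 ± 0.24 (SE, n = 3 and 3; limma, adjusted p = 0.15). With each sample centred on its median the limma adjusted p was 0.020, at a difference of 0.68. MRPL22 had 0.912, 0.676 and 0.930 at 25°C and 1.19, 1.25 and 1.32 at 37°C, a difference of 0.59 ± 0.21 (SE, n = 3 and 3; limma, adjusted p = 0.18). With MRPL23 and RSM7, these genes made 4 of 9 members with every 37°C sample above every 25°C sample in the mutant, as did 18.7% of all genes.

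**Figure D5:**
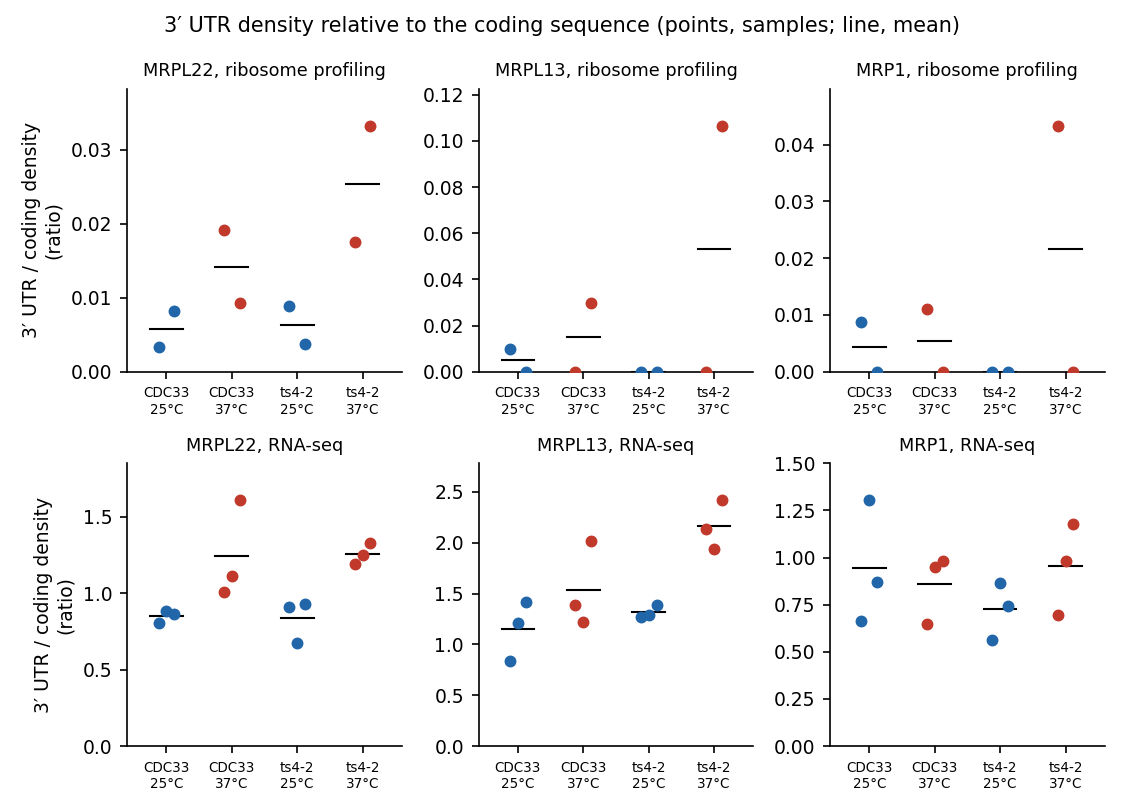
3′ UTR density relative to the coding sequence (ratio) in ribosome profiling (top) and RNA-seq (bottom) for 3 genes, 1 point a sample (blue 25°C, red 37°C) with a line at the mean; ts4-2 stands for cdc33-ts4-2. Ribosome density was at or near 0 in most samples, and single 37°C samples set the means of MRPL13 and MRP1 in the mutant.

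Few other genes of mitochondrial translation could be followed. Of the 57 genes in the 4 lists, 6 had complete 5′ UTR values and 5 complete 3′ UTR values. In ribosome profiling 1 of the 6, NAM9, which encodes a small-subunit protein outside the naming rule, was called higher in the 5′ UTR at 37°C in both strains, beside 13.5% of all genes in CDC33 and 16.8% in the mutant. With each sample centred on its median its limma adjusted p was 0.49 in CDC33 and 0.90 in the mutant. OXA1, the membrane insertase for proteins made in mitochondria, was called higher in the 3′ UTR in both strains, beside 0.911% and 37.2% of all genes called. In CDC33 its limma adjusted p of 0.046 became 0.37 with the replicate number as a block and 0.60 with centring. It became 0.18 with the filter on values above 0. In the mutant its limma adjusted p of 0.0078 became 0.46 with centring. No gene of these lists was called lower in the 12 comparisons as fitted. With centring in ribosome profiling, MNP1 (5′ UTR) and EHD3 (3′ UTR) were called lower in the mutant. With a pseudocount of 0.001, MNP1 was called lower in the mutant there (5′ UTR, −4.24; limma, adjusted p = 0.037). So was OXA1 for the strain by temperature term (3′ UTR, −3.07; limma, adjusted p = 0.035). In CDC33 the 5′ UTR difference of MNP1 was −1.31 without 25°C replicate 2.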

How the data were processed

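RNA-seq (poly(A)-selected RNA, 12 samples) and ribosome profiling (8 samples) of yeast were taken as deposited. The mean normalized counts (a signal) were made by the authors with Salmon 1.9.0 over coding sequences with 50 bases on each side, imported and normalized with DESeq2 1.32.0, 1 mean per gene and assay over all samples. Whether the import scaled counts by length is not given in the sources used here. In 4 other protein complexes the log2 ribosome-profiling mean rose with log2 coding length with slopes of 0.58 to 0.72, nearer to 1 (counts) than to 0 (scaled), but the RNA-seq mean had slopes of 0.133, 0.177, 0.435 and 0.979 there, and the members' own slopes were 0.18 (ribosome profiling) and 0.51 (RNA-seq). The scale was thus not settled. Means were divided by the coding length of R64, and undivided values are given beside them. The density ratio values were made by the authors with STAR 2.7.10b (unique reads) and featureCounts, strand enforced, over the longest annotated UTR or a default UTR of 120 (5′) or 200 (3′) bases, and divided by length and by coding-sequence coverage. Feature-table lengths and uORF numbers were used as deposited. Columns of the authors' fold changes, standard errors and p-values between temperatures and strains, for RNA, ribosome occupancy and translation efficiency, were not used.

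Lines of the density tables with blanks are packed to the left, so only the 1218 (5′ UTR) and 1208 (3′ UTR) genes with a value in every sample were kept. Per-sample read depth is unknown from the files used, so no interval is given for a density, and values of 0 may stand for few reads. Log2(density + 0.01) was fitted over all 4 groups of an assay with limma 3.58.1 in R 4.3.3 (empirical Bayes with a mean trend). P-values were adjusted by Benjamini-Hochberg over all genes of the fit, with a threshold of 0.05, and are two-sided. The fit was tested on simulated densities, whose spread was set and not estimated from these samples. With 2 samples a group, 8% of log2 changes of 1 and 40% of log2 changes of 2 were called. With 3 samples a group these shares were 28% and 66%. Changes of this size can thus go uncalled, and a member that was not called is not shown to be unchanged. Same-numbered samples of a strain were checked for shared deviations: correlations were −0.104 to 0.327, over 0.1 in 5 of 20 pairs, so replicates were not treated as pairs. Cultures were divided between temperatures, but the labels do not say that replicate numbers mark the same culture. With 2 samples a group, both pairs of a strain hold 1 and the same value. The 3′ UTR in RNA-seq was an exception. In CDC33 all 3 pairs were over 0.1 (0.183 to 0.204), and the block gave the same numbers of calls, 0 members and 0 genes. In the mutant the pairs had 0.327, 0.064 and 0.097, and the block took the genes called from 30 to 55.

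Named members were the 5 highest and 3 lowest by RNA mean per kb, the 3 highest and 3 lowest by ratio, those past the threshold in a density comparison (otherwise the 3 largest differences, as values), and those with 2 or more Puf3 elements. Members shown for other reasons were chosen after their values were seen. The members and all lists were chosen with earlier results of these data known. Alternatives were other pseudocounts, a filter on values above 0, a replicate block, centring, no trend, leaving out each sample, other length scales and other windows. The filter kept genes above 0 in at least 6 of the 8 ribosome-profiling or 9 of the 12 RNA-seq samples.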

Additional observations from a re-analysis of the deposited data

How the results depend on the processing

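Over 12 density comparisons and all alternatives, the number of members called moved in 21 of 152 fits. For 5′ UTR density in ribosome profiling it went from 1 to 0 in CDC33 with a replicate block and with centring. In cdc33-ts4-2 it went from 2 to 0 with the replicate block, to 1 with centring and to 1 with a pseudocount of 0.001 (MRP1). Neither of the 2 was called with centring: the 1 was MRPL3, listed at 0 in every sample, so that its difference came from the centring itself. For 3′ UTR density in the mutant it went from 0 to 1 with the filter on values above 0 and with centring in ribosome profiling, and to 1 with centring in RNA-seq. The member called with centring in ribosome profiling was MRPS18, listed at 0 in all 4 mutant samples, and its difference likewise came from the centring. The block changed no other number of members called. With 1 sample left out, which assumes that the lone sample of a group of 2 varies like the others, the number ran from 0 to 2 (5′ UTR, CDC33) and stayed at 0 (5′ UTR, mutant) in ribosome profiling. In the 3′ UTR it ran from 0 to 1 in CDC33, in the mutant and for the strain by temperature term, and it stayed at 0 in the other comparisons. Of 419 values of named members, 4 changed sign, each with a sample left out and none of them called: the strain by temperature term of MRP4 (5′ UTR, −1.27 to 0.048), MRP1 (3′ UTR, −0.083 to 2.33) and MRPL13 (3′ UTR, −0.50 to 3.04) in ribosome profiling, and MRPL13 in CDC33 (5′ UTR, −1.21 to 0.14) in RNA-seq.

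The number of all genes called moved by more than 1.5 times over the alternatives with no sample left out. For the 5′ UTR in ribosome profiling it was 170 and ran from 16 (centring) to 252 (filter) in CDC33, 209 and ran from 47 (block) to 380 (pseudocount of 0.1) in the mutant, and 3 and ran from 0 to 5 for the strain by temperature term. For the 3′ UTR it was 11 and ran from 0 to 30 in CDC33, 449 and ran from 281 (block) to 449 in the mutant, and 187 and fell to 0 with the block and with centring for the strain by temperature term. In RNA-seq it ran from 4 to 7, from 30 to 60 and from 3 to 15 for the 5′ UTR, and from 28 to 103 for the 3′ UTR in the mutant, where it went from 30 to 55 with the block. With 1 sample left out it ran from 6 to 293 (5′ UTR, CDC33), from 0 to 53 (5′ UTR, mutant) and from 229 to 565 (3′ UTR, mutant) in ribosome profiling. Centring shifted the all-gene median by more than 0.1 on the log2 scale, from 0.73 to −0.13 in CDC33 and from 0.80 to −0.47 in the mutant.

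Using the mean count itself, the share of members above the all-gene median went from 75% to 38.2% for RNA-seq and from 98.5% to 75% for ribosome profiling, and the standard deviation of the log2 ribosome-profiling mean went from 0.67 to 0.42. Adding the 100 counted flanking bases to the length, an alternative chosen after the data had been seen, gave 73.5%, 98.5% and 0.60. The share of members with the Puf3 element was 89.7% in a window of 100 bases and 97.1% in one of 300. Limits: 60 of 68 members had no complete 5′ UTR values, groups held 2 or 3 samples, and the means carry no error.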
